A study of Homo sapiens with 6 samples.

Results

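The genes described here are the ligands and receptors of axon guidance, in SH-SY5Y cells depleted of CSB or CSA. They were taken by symbol as the protein-coding genes of the semaphorin (SEMA3 to SEMA7), plexin, neuropilin, SLIT, ROBO, ephrin, EPH, netrin, UNC5 and DCC families, which gave 68 of the 32575 genes listed in at least 1 library, 16555 of them protein-coding. They comprise 37 ligands and 31 receptors. There are 20 semaphorins, 3 SLITs, 5 ephrin-As, 3 ephrin-Bs and 6 netrins on the ligand side, and 9 plexins, 2 neuropilins, 4 ROBOs, 6 EPHAs, 5 EPHBs, 4 UNC5s and DCC on the receptor side. The rule uses symbols and gene types alone. A further 4 symbols that matched belong to antisense transcripts and were left out.

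Growing axons are steered by secreted or membrane-bound cues that are read by receptors on the growth cone. Semaphorins signal through plexins, with neuropilins as co-receptors for the secreted class, SLITs through ROBO receptors, ephrins through the EPH receptor tyrosine kinases, and netrins through DCC and the UNC5 receptors. The same molecules also guide migrating cells, among them the neural crest cells from which the sympathetic lineage and neuroblastoma arise.

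SH-SY5Y is a line of sympathetic neuroblastoma cells that resemble immature neurons. The 3 groups were cells with a short hairpin RNA against CSB (gene ERCC6), cells with a hairpin against CSA (gene ERCC8) and cells with a control hairpin, with 2 libraries of messenger RNA each. CSB is a chromatin remodeller and CSA a subunit of a ubiquitin ligase, and both act in transcription-coupled DNA repair. In all 3 groups the hairpin was delivered by lentivirus, and the cells were selected with puromycin and cultured for 2 to 3 weeks. The genotype labels call the control WT and the depleted cells mutants, but the protocol describes hairpins, so the depleted cells are called knockdowns. The sources used here do not say whether both libraries of a group stem from separate transductions, so the p-values reflect the spread of these libraries only, which may be technical. Because the samples are bulk RNA, fewer cells of a type and less RNA per cell cannot be told apart.

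The libraries held 19368272 to 26758162 reads assigned to genes. Levels are given as scaled counts, that is the reads of a gene over the size factor of its library, and as scaled counts per kb of gene length where genes are compared with each other. ERCC6 had scaled counts of 258 and 302 in the CSB knockdown, against 615 and 593 in the control. ERCC8 had 61.8 and 57.2 in the CSA knockdown, against 219 and 217 in the control. All 15 markers of sympathetic neuroblastoma were listed. They summed to 139000 to 141000 in the CSB knockdown, 166000 to 173000 in the CSA knockdown and 147000 to 151000 in the control. TH, which makes the precursor of catecholamines, averaged 10.2 in the CSB knockdown, 4.14 in the CSA knockdown and 17.1 in the control. HAND2, GATA2 and STMN2 were the most abundant, and the sums hide shifts of single markers. CHGA averaged 3624 in the CSB knockdown, 24390 in the CSA knockdown and 14900 in the control. CHGB averaged 834 in CSB, 3880 in CSA and 1822 in the control, and NEFM 668, 2714 and 1715. PHOX2A, GATA2, GATA3 and ISL1 were instead highest in the CSB knockdown. Defining markers of other cells were at 0 in every library, namely SOX10, CDH19 and FOXD3 of Schwann cells and glia (6 of 9 listed), PECAM1 of endothelium (7 of 8 listed), CD3E and CD68 of leukocytes and KRT5 and KRT14 of epithelium (6 of 8 listed).

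Of the 68 members, 67 averaged a scaled count of 1 or more in some group and were tested with limma among 28388 genes. A gene is said to have risen or fallen where its Benjamini-Hochberg adjusted p over those genes was below 0.05, and ± is the standard error (SE) of a log2 fold change. EPHA7, an ephrin-A receptor, was not tested, with at most 2 reads in any library. Both comparisons with the control use the same control libraries, so the direct comparison of CSB with CSA is given as well.

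In the CSB knockdown 30 members rose and 10 fell relative to the control, and in the CSA knockdown 14 rose and 20 fell. For CSB this was 44.8% of the tested members higher and 14.9% lower, where 14.8% of all tested genes were higher and 8.86% lower. Of the 68 members, 58 had a mean of at least 50 in some group, so the tested protein-coding genes with such a mean are the closer background. Among those 12302 genes, 28.3% were higher and 18.4% lower in the CSB knockdown. For CSA, 20.9% of members were higher and 29.9% lower, against 8.37% and 10.4% of all tested genes and 16.1% and 21.2% of the well-expressed coding genes. The median log2 fold change of the members was 0.38 for CSB and -0.08 for CSA, and that of all tested genes 0.10 and 0.0048. Compared directly, 33 members (49.3%) were higher and 16 (23.9%) lower in the CSB than in the CSA knockdown, against 18.1% and 11.3% of all tested genes and 33.2% and 21.7% of the well-expressed coding genes.

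**Figure D1:**
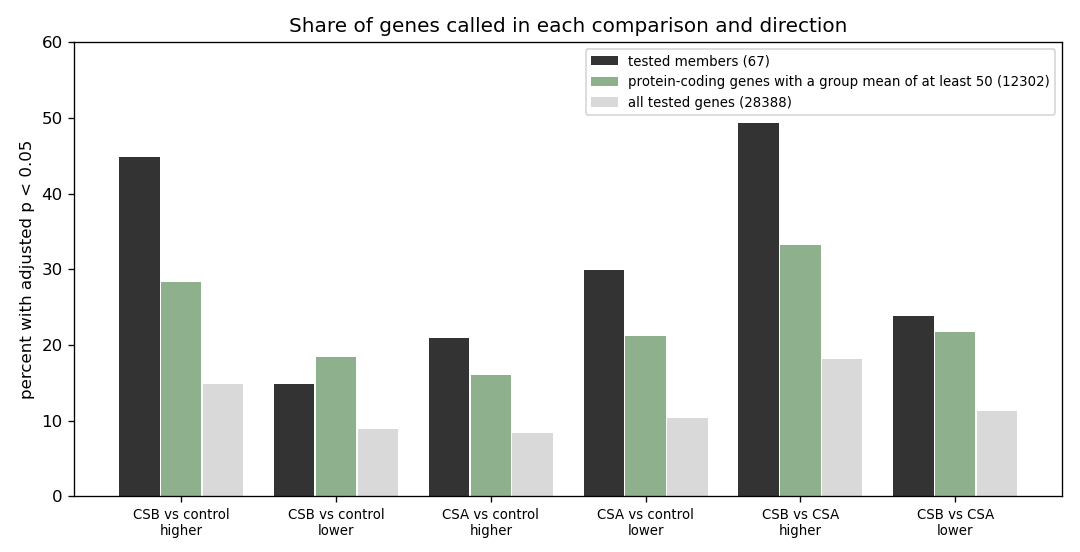
Percent of genes higher or lower at an adjusted p below 0.05 (y axis) in each comparison (x axis), for the tested members, for protein-coding genes with a group mean of at least 50 and for all tested genes. The members' bar is the tallest in every direction except lower in the CSB knockdown, where 14.9% of members lies under the 18.4% of well-expressed coding genes.

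These counts changed when libraries were left out. Leaving out a library also lowers the residual degrees of freedom below the 3 of the full fit. A call can then be lost with its fold change unaltered, as when a CSB library is omitted from CSA against control. A lost call thus does not by itself show that a difference rests on the omitted library. The matching losses among all called genes are not given here. The 30 members higher in the CSB knockdown became 18 without CSB replicate 1 and 18 without CSB replicate 2, and the 10 lower became 1 without control replicate 1, 2 without control replicate 2, 1 without CSB replicate 1 and 3 without CSB replicate 2. For the CSA knockdown, the 14 higher became 3 and 4 without the first and second control library, 8 and 3 without the first and second CSA library and 4 and 5 without the first and second CSB library. The 20 lower in the CSA knockdown became 5 and 8 without the first and second control library, 13 without CSA replicate 2, and 13 and 12 without the first and second CSB library. The 16 members lower in CSB than in CSA became 4 and 6 without the first and second CSB library, 9 and 7 without the first and second CSA library, and 8 without either control library. With TMM scaling the split over all genes in the CSB knockdown was 3027 higher and 3245 lower, against 4191 higher and 2515 lower with the deposited scaling, and that of the members 26 higher and 12 lower. For CSB against CSA, TMM scaling gave 4047 genes higher and 4222 lower, against 5128 and 3212, and 30 members higher and 17 lower.

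Called with all 6 libraries and under each of the 16 alternative settings, omission of any library included, were 16 of the 30 rises and 1 of the 10 falls in the CSB knockdown, and 3 of the 14 rises and 5 of the 20 falls in the CSA knockdown. The CSB rises were those of SEMA4C, SEMA5A, SEMA6A, SEMA6C, SEMA6D, EFNA4, NTN3, NTNG2, PLXNA1, PLXNA2, PLXNA4, PLXNB2, PLXNB3, NRP2, EPHB4 and UNC5B, and the fall was that of SLIT1. The CSA rises were those of EFNB2, PLXNB1 and ROBO2, and the falls those of SEMA3C, SEMA5A, SEMA7A, PLXNA2 and EPHA2. The share of all called genes that held in the same way is not given here. How far such counts are particular to the members is therefore unknown. In the direct comparison 23 of 33 higher and 3 of 16 lower members were called throughout.

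**Figure D2:**
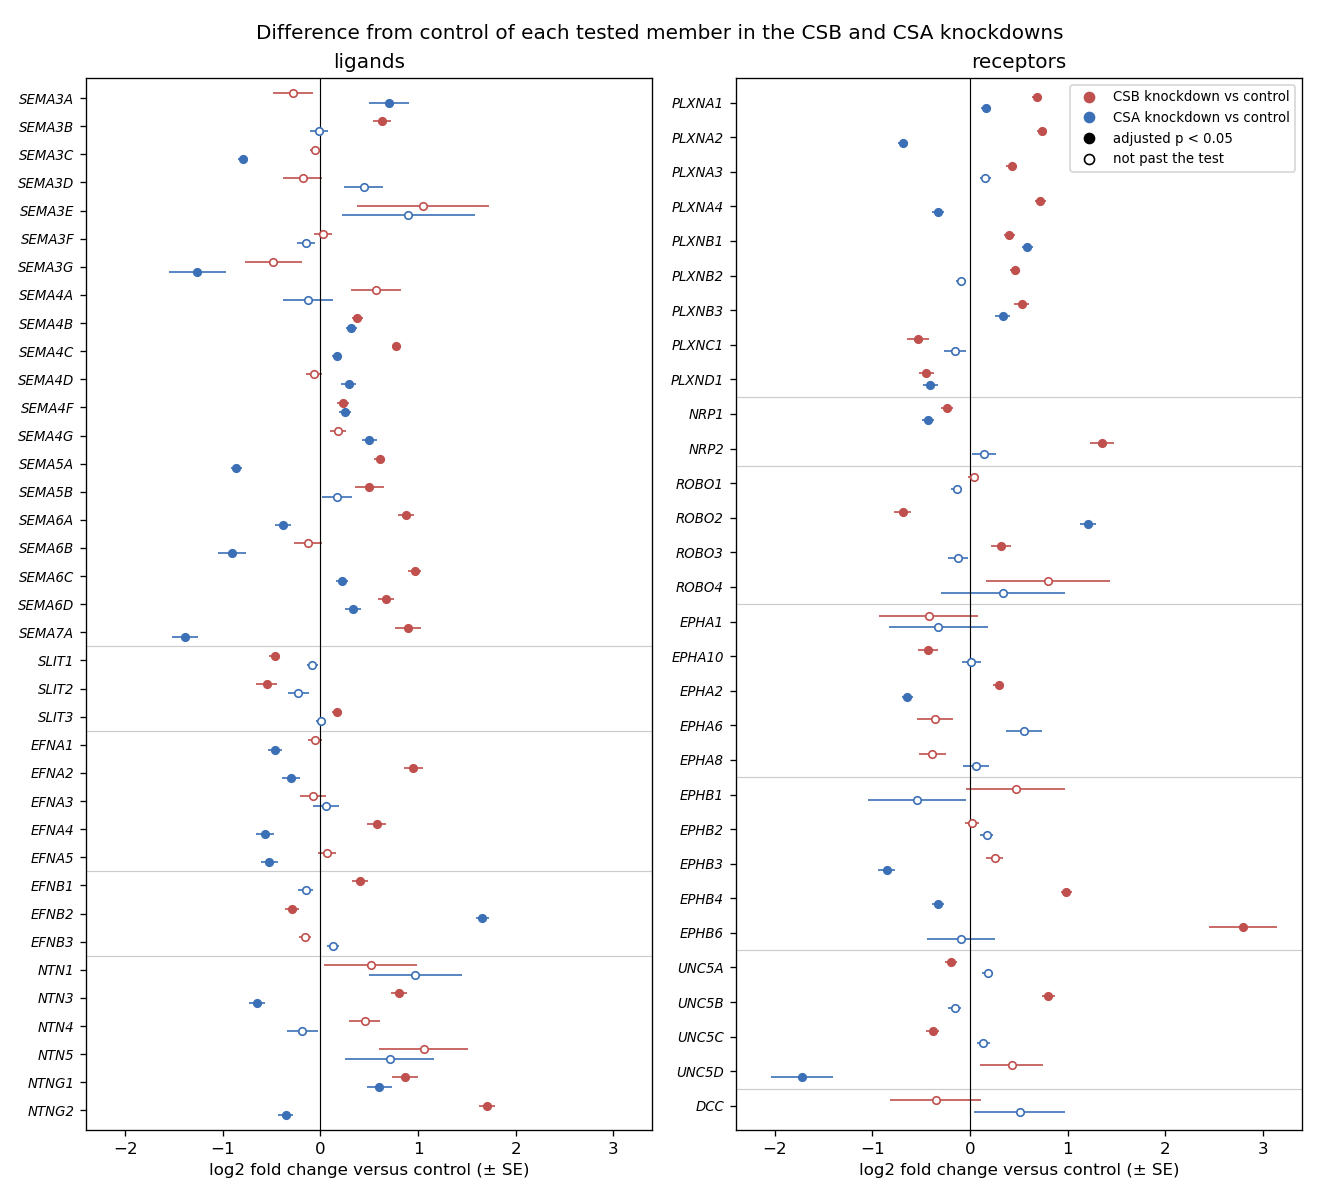
Log2 fold change against the control with its SE (x axis) for each tested ligand and receptor (y axis) in the CSB and the CSA knockdown, filled where the adjusted p was below 0.05. EFNB2 and ROBO2 lie to the left of 0 in the CSB knockdown and to the right in the CSA knockdown, and SEMA5A, SEMA7A, NTN3 and PLXNA2 the other way round.

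The members furthest apart between the knockdowns were EFNB2 and ROBO2, higher in the CSA knockdown, and EPHB6, SEMA7A, UNC5D, NTNG2 and SEMA5A, higher in the CSB knockdown. EFNB2, at chr13:106489731-106535114 (minus strand) in hg38, encodes ephrin-B2, a transmembrane ligand of EPHB receptors that also signals into its own cell. Its scaled counts were 566 and 609.7 in the CSB libraries, 2202 and 2341 in the CSA libraries and 751 and 688 in the control libraries. No library of a group overlapped another group, and the CSA libraries stood above the rest. The log2 fold change was -0.29 ± 0.07 (SE, adjusted p = 0.00771) in the CSB knockdown and 1.66 ± 0.07 (adjusted p = 1.8e-08) in the CSA knockdown, and -1.95 ± 0.07 (adjusted p = 1.1e-09) for CSB against CSA. ROBO2, a receptor for SLIT proteins at chr3:75906695-77649964 (plus strand), showed the same order of groups. Its scaled counts were 312 and 355 in the CSB libraries, 1319 and 1175 in the CSA libraries and 552 and 523 in the control libraries. It changed by -0.69 ± 0.08 (adjusted p = 7.5e-05) on the log2 scale in the CSB knockdown and 1.21 ± 0.08 (adjusted p = 1.0e-06) in the CSA knockdown. The calls in the CSA knockdown and between the knockdowns held under every alternative run. The fall of EFNB2 in the CSB knockdown was lost without either control library, either CSB library or CSA replicate 2 (highest adjusted p 0.178), and that of ROBO2 without control replicate 1 or CSB replicate 1 (highest adjusted p 0.0588).

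In the other direction, EPHB6, at chr7:142855061-142871094 (plus strand), encodes an EPH receptor without kinase activity. It had scaled counts of 82.6 and 64.4 in the CSB libraries, 7.59 and 10.5 in the CSA libraries and 7.96 and 11.6 in the control libraries. The gene was low in the CSA knockdown and the control alike and rose in the CSB knockdown by a log2 fold change of 2.80 ± 0.35 (adjusted p = 9.6e-05), a ratio of mean scaled counts of 7.52. Without CSB replicate 1 its adjusted p was 0.0524. SEMA7A, at chr15:74409289-74434467 (minus strand), encodes a semaphorin anchored to the membrane by a lipid, a ligand of plexin C1 and integrins that promotes axon growth in mice. Its scaled counts were 269 and 240.1 in the CSB libraries, 53.1 and 49.6 in the CSA libraries and 147 and 125 in the control libraries. The 3 groups did not overlap, with CSB highest and CSA lowest. Log2 fold changes of SEMA7A were 0.90 ± 0.14 (adjusted p = 4.5e-04) in the CSB knockdown and -1.39 ± 0.14 (adjusted p = 1.9e-05) in the CSA knockdown. The rise was lost without control replicate 2 or either CSB library (highest adjusted p 0.0692), the fall under none of the alternatives run.

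SEMA5A, at chr5:9035026-9546075 (minus strand), encodes a transmembrane semaphorin with thrombospondin repeats that can attract or repel axons. It had scaled counts of 2434 and 2578 in the CSB libraries, 917 and 894 in the CSA libraries and 1619 and 1675 in the control libraries, again with CSB highest and CSA lowest. Its log2 fold change was 0.61 ± 0.06 (adjusted p = 8.9e-06) in the CSB knockdown and -0.86 ± 0.06 (adjusted p = 6.1e-07) in the CSA knockdown, and 1.47 ± 0.06 (adjusted p = 2.2e-09) for CSB against CSA. These calls held under every alternative run.

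**Figure D3:**
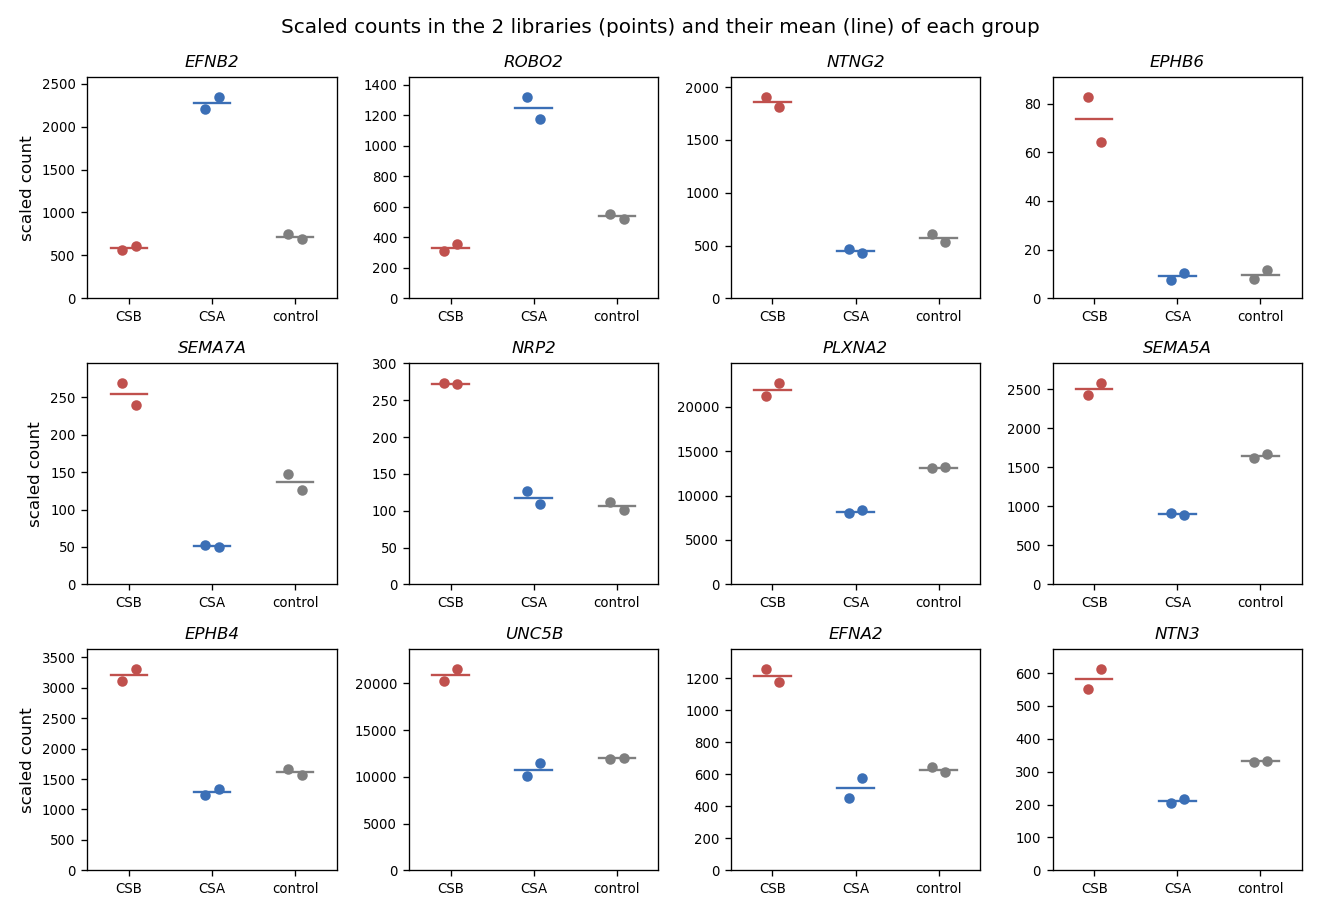
Scaled counts (y axis, linear, from 0) of 12 members in the 2 libraries of each group (points) with their mean (line), for the CSB knockdown, the CSA knockdown and the control. EFNB2 and ROBO2 are highest in the CSA knockdown, at 2202 and 1319 scaled counts in its first library, and the other 10 genes are highest in the CSB knockdown.

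The 250 bases before the annotated RefSeq start (GRCh38.p14, the assembly that hg38 names) are shown for the members with a promoter entry that lay furthest apart between the knockdowns, 2 lower and 3 higher in CSB than in CSA, so that the promoters of genes moving in opposite directions can be read side by side. They were chosen by those values. Each runs 5′ to 3′ on the gene's strand, and capitals mark matches, on either strand, to the motifs searched, GGGCGG (the GC box), CAGATG (an E-box), TGANTCA (AP-1), GGAATG (TEAD) and TATAAA (the TATA box). Of the 2 entries for ROBO2, the one followed by bases found in a GENCODE transcript of the gene is shown, and of the 2 for SEMA7A, the one further upstream. The windows shown for ROBO2, EPHB6 and SEMA7A lie inside the genes as the deposited positions place them. They are therefore intragenic sequence by those positions, unlike the windows of EFNB2 and SEMA5A.
EFNB2 chr13:106535663-106535912 (minus strand): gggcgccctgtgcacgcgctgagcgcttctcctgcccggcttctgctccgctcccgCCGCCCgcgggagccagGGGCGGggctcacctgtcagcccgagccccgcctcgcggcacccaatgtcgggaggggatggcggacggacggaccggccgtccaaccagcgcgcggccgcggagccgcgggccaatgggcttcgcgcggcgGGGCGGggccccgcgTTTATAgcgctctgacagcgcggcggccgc
ROBO2 chr3:77039849-77040098 (plus strand): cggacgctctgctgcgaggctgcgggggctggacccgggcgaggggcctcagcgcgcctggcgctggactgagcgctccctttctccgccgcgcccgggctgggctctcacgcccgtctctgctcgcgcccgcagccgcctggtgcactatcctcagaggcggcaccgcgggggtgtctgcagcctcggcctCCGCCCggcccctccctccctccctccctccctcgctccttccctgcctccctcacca
EPHB6 chr7:142862506-142862755 (plus strand): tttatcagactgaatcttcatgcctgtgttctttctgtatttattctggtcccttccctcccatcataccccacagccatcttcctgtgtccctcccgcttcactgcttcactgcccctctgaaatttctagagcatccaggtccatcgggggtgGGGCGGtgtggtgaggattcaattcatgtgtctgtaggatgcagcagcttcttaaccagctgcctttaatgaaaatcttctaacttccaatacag
SEMA7A chr15:74433959-74434208 (minus strand): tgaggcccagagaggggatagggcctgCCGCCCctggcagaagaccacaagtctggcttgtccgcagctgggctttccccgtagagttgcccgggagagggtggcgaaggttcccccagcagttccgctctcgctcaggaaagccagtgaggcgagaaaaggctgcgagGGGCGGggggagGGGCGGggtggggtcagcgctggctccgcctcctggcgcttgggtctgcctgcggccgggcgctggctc
SEMA5A chr5:9546076-9546325 (minus strand): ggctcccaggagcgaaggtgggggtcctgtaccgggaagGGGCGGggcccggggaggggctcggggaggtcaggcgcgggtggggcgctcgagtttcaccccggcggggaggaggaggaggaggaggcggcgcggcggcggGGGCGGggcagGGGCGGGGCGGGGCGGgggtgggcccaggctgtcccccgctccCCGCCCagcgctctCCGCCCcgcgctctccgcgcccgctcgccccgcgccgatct

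The windows of EFNB2, SEMA5A and ROBO2 held 40, 33 and 27 CpG dinucleotides, that of SEMA7A 17 and that of EPHB6 3. The median over the 89 entries of 57 members was 17, and over all 35116 entries 11. SEMA5A held 7 GC boxes, EFNB2 and SEMA7A 3 each and ROBO2 and EPHB6 1 each. The SEMA7A entry not shown held 38 CpG dinucleotides and 4 GC boxes, and the ROBO2 entry not shown 7 and 0. A GC box stood in 62 of the 89 members' windows (69.7%) and in 42.6% of all windows. The letters TATAAA, read on the opposite strand, stood once in the EFNB2 window, in 3.37% of the members' windows and in 10.7% of all. CAGATG was found in 8.99% of the members' windows and 12.2% of all, TGANTCA in 1.12% of the members' windows and 6.57% of all, and GGAATG in 7.87% of the members' windows and 11.9% of all, none of them in the 5 windows shown. A match is a run of letters, and binding was not measured. The entries of all genes were not limited to well-expressed coding genes, the closer background above, and a member can have more than 1 entry. The part of expression level or gene type in the gaps between members and all entries was not tested.

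Levels can be compared between genes per kb of gene length. The most abundant member was the repulsive netrin receptor UNC5B, with a mean scaled count per kb of 3055 in the CSB knockdown, 1572 in the CSA knockdown and 1750.0 in the control. PLXNB2 followed with 1333 in the CSB knockdown, 913 in the CSA knockdown and 971 in the control. PLXNA2 had 1591 in the CSB knockdown, 595 in the CSA knockdown and 955 in the control. The ligands with the highest level over all libraries were EFNA2 and SLIT3. EFNA2 stood at 1284 in the CSB knockdown, 542 in the CSA knockdown and 663 in the control. SLIT3 stood at 724 in the CSB knockdown, 649 in the CSA knockdown and 644 in the control. UNC5B stood first in every group, whereas the order of PLXNB2 and PLXNA2 differed between groups. At the low end, NTN1, DCC, SEMA3E, EPHB1, ROBO4 and EPHA7 averaged under 1 scaled count per kb over all libraries.

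**Figure D4:**
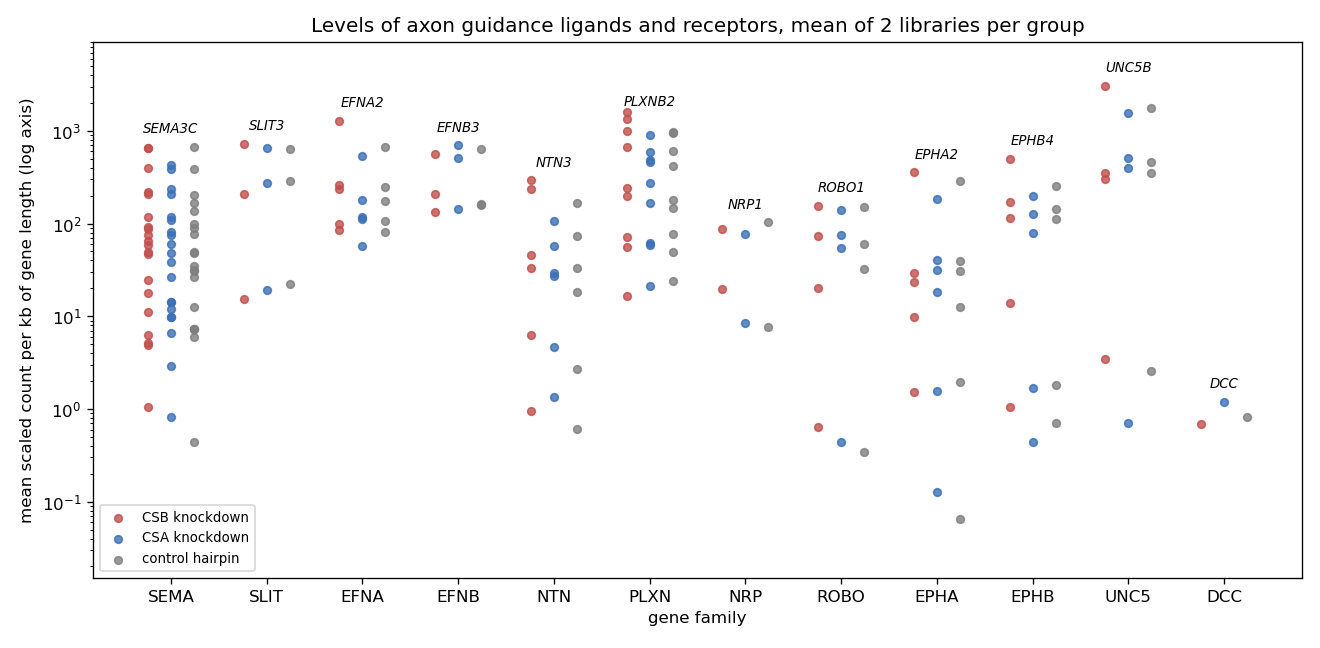
Mean scaled count per kb of gene length (y axis, log scale) of each member by family (x axis), for the CSB knockdown, the CSA knockdown and the control, with genes at 0 not drawn. UNC5B is at the top in each group, at 3055 in the CSB knockdown, and ROBO4, EPHB1 and SEMA3E are among the lowest.

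Among the ligands, 10 of the 20 semaphorins rose in the CSB knockdown and none fell, while in the CSA knockdown 8 rose and 6 fell. Of the well-expressed coding genes, 28.3% rose and 18.4% fell in CSB, and 16.1% rose and 21.2% fell in CSA. SEMA3C, the most abundant semaphorin per kb over all libraries, is a secreted member of class 3, bound by neuropilins, that guides neural crest cells in mice and chicks. Its scaled counts were 4016 and 4076 in the CSB libraries, 2536 and 2334 in the CSA libraries and 4257 and 4169.9 in the control libraries. The CSA libraries were far the lowest, and the CSB libraries lay just under the control libraries. The log2 fold change was -0.79 ± 0.05 (adjusted p = 8.4e-07) in the CSA knockdown, held under every alternative run, and -0.06 ± 0.05 (adjusted p = 0.492) in the CSB knockdown. SEMA3C made up 23.2% of semaphorin level per kb in both CSB libraries, 21.6% and 19.5% in the CSA libraries and 32.0% and 32.3% in the control libraries.

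Of the other class 3 semaphorins, SEMA3B, a secreted repellent located near SEMA3F on chromosome 3, had scaled counts of 443 and 419 in the CSB libraries, 272 and 279 in the CSA libraries and 257 and 302 in the control libraries. It rose in the CSB knockdown by 0.63 ± 0.09 (adjusted p = 3.9e-04) on the log2 scale, a call lost without either CSB library (highest adjusted p 0.0831). SEMA3A, the growth cone-collapsing member, had 50.6 and 40.4 in the CSB libraries, 79.1 and 104 in the CSA libraries and 55.7 and 55.0 in the control libraries, and its rise in the CSA knockdown (0.70, adjusted p = 0.0306) was lost whichever library was left out and under DESeq2. SEMA3G fell in the CSA knockdown (-1.26, adjusted p = 0.00902), also lost whichever library was left out (highest adjusted p 0.126). SEMA3D, SEMA3E and SEMA3F passed neither test against the control, with SEMA3E at 0.965 to 10.7 scaled counts. Thus 1 of the 7 class 3 semaphorins (14.3%) rose and none fell in the CSB knockdown, against 28.3% and 18.4% of the well-expressed coding genes. In the CSA knockdown 1 rose (14.3%) and 2 fell (28.6%), against 16.1% and 21.2%.

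Class 4 semaphorins are transmembrane ligands, largely of the class B plexins. In the CSB knockdown 3 of 6 rose and in the CSA knockdown 5 of 6, none lower in either. The well-expressed coding genes stood at 28.3% higher and 18.4% lower in CSB, and 16.1% higher and 21.2% lower in CSA. SEMA4C, a ligand of plexin B2, had scaled counts of 4085 and 4058 in the CSB libraries, 2579.7 and 2744 in the CSA libraries and 2377 and 2369 in the control libraries. The CSB libraries stood well above the rest, and the log2 fold change was 0.78 ± 0.05 (adjusted p = 6.5e-07). In the CSA knockdown it was 0.16 ± 0.05 (adjusted p = 0.0395), lost when any library but CSA replicate 1 was left out (highest adjusted p 0.219) and in a fit of the 2 groups alone, with the replicate block and with no filter. SEMA4B had 1538 and 1516 in the CSB libraries, 1411 and 1514 in the CSA libraries and 1209 and 1138 in the control libraries. SEMA4B rose by 0.38 ± 0.06 (adjusted p = 5.1e-04) in the CSB knockdown and 0.32 ± 0.06 (adjusted p = 0.00227) in the CSA knockdown. SEMA4F, SEMA4G and SEMA4D rose in the CSA knockdown by 0.25 to 0.50 and SEMA4F in the CSB knockdown by 0.23 on the log2 scale. SEMA4A, at 41.0 to 91.6 scaled counts, passed no test. Apart from that of SEMA4C in the CSB knockdown, each of these class 4 calls was lost in at least 3 of the 6 fits that leave out a library. SEMA4G overlaps MRPL43 on the opposite strand over 16354 bases, and since the strand setting of the counting is not stated, its value is uncertain.

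Classes 5 and 6 are transmembrane semaphorins, and 5 of 6 (83.3%) rose in the CSB knockdown, against 28.3% of the well-expressed coding genes. SEMA6A, a ligand of plexins A2 and A4, had scaled counts of 680.4 and 728 in the CSB libraries, 306 and 282 in the CSA libraries and 399.8 and 368 in the control libraries. CSB was highest and CSA lowest, with a log2 fold change of 0.87 ± 0.08 (adjusted p = 9.8e-06) in the CSB knockdown and -0.38 ± 0.08 (adjusted p = 0.00502) in the CSA knockdown. The fall in the CSA knockdown was lost when any library but CSA replicate 1 was left out (highest adjusted p 0.135). SEMA6A and its antisense gene share 60730 bases and were counted with a strand setting that is not stated. SEMA6C had 2296 and 2285 in the CSB libraries, 1295 and 1440.0 in the CSA libraries and 1221 and 1126 in the control libraries, a log2 fold change of 0.97 ± 0.06 (adjusted p = 8.3e-07) in the CSB knockdown. SEMA6D, a ligand of plexin A1, rose in both knockdowns, by 0.68 ± 0.08 (adjusted p = 8.3e-05) in CSB and 0.34 ± 0.08 (adjusted p = 0.0126) in CSA, the second lost whichever library was left out (highest adjusted p 0.123). SEMA6C in the CSA knockdown (0.22, adjusted p = 0.0329) was lost in the same way. SEMA6B, with 110.1 and 106 in the CSB libraries, 66.1 and 59.1 in the CSA libraries and 118 and 118 in the control libraries, fell in the CSA knockdown (-0.91, adjusted p = 7.9e-04), a call lost without either control library (highest adjusted p 0.0606). SEMA5B rose in the CSB knockdown by 0.50 ± 0.15 (adjusted p = 0.0296), lost when any library but CSA replicate 1 was left out and under TMM scaling and DESeq2.

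The SLITs are secreted repellents that bind ROBO receptors. SLIT3 took most of the family, with scaled counts of 10058 and 10604 in the CSB libraries, 9498 and 9007 in the CSA libraries and 9241 and 9134 in the control libraries. The groups differed little, by 0.17 ± 0.05 (adjusted p = 0.03) in the CSB knockdown and 0.01 ± 0.05 (adjusted p = 0.935) in the CSA knockdown on the log2 scale, and the small rise in CSB was lost under upper quartile and TMM scaling, edgeR, DESeq2 and the replicate block and when any library but CSA replicate 1 was left out (highest adjusted p 0.256). SLIT1 shares 32876 bases with ARHGAP19-SLIT1 on the same strand, and how shared reads were assigned is not stated. It had 1838 and 1956 in the CSB libraries, 2529.8 and 2432 in the CSA libraries and 2659.7 and 2592 in the control libraries, lowest in the CSB libraries. The log2 fold change was -0.47 ± 0.05 (adjusted p = 4.9e-05) there, held under every alternative run, and -0.08 ± 0.05 (adjusted p = 0.347) in the CSA knockdown. SLIT2 had 139.8 and 156 in the CSB libraries, 182 and 188 in the CSA libraries and 213 and 221 in the control libraries. SLIT2 fell in the CSB knockdown with a log2 fold change of -0.55 ± 0.11 (adjusted p = 0.0024), lost without CSB replicate 1 or either control library (highest adjusted p 0.0754). The summed level of the 3 SLITs per kb was 922 and 975 in the CSB libraries, 963 and 918 in the CSA libraries and 962 and 948 in the control libraries, so the groups overlapped.

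Ephrin-As are ligands tethered to the membrane by a lipid anchor and bind mainly EPHA receptors. In the CSB knockdown 2 of 5 (40.0%) rose and in the CSA knockdown 4 of 5 (80.0%) fell. Of the well-expressed coding genes, 28.3% rose in CSB and 21.2% fell in CSA. EFNA2, the most abundant per kb, had scaled counts of 1257 and 1179 in the CSB libraries, 454 and 575 in the CSA libraries and 645 and 614 in the control libraries. The CSB libraries were the highest, at a log2 fold change of 0.95 ± 0.10 (adjusted p = 1.8e-05), and the CSA libraries the lowest, at -0.30 ± 0.10 (adjusted p = 0.0469). The rise was lost without either CSB library (highest adjusted p 0.0718), the fall when any library but CSA replicate 2 was left out and under 6 other alternatives (highest adjusted p 0.401), and the difference between the knockdowns, 1.25 ± 0.10 (adjusted p = 8.3e-07), under none. EFNA2 lies within MUM1 on the same strand over 14084 bases, and how shared reads were assigned is not stated. EFNA4, at chr1:155063731-155069553 (plus strand), had 323 and 333 in the CSB libraries, 148 and 147 in the CSA libraries and 221 and 219 in the control libraries. EFNA4 moved by 0.57 ± 0.09 (adjusted p = 6.8e-04) in the CSB knockdown and -0.57 ± 0.09 (adjusted p = 8.8e-04) in the CSA knockdown. The fall of EFNA4 was lost without control replicate 1 (adjusted p of 0.0507), its rise under none of the alternatives.

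The members nearest to EFNA4 are EFNA3 and EFNA1, on the same strand of chromosome 1. EFNA3, which starts at 155078872, had 192 and 191 in the CSB libraries, 183 and 239 in the CSA libraries and 186 and 218 in the control libraries. EFNA3 passed no test. EFNA1, which starts at 155127460, had 624 and 583 in the CSB libraries, 439 and 469 in the CSA libraries and 609 and 644 in the control libraries. EFNA1 fell in the CSA knockdown. Its log2 fold change was -0.46 ± 0.07 (adjusted p = 6.8e-04) in CSA and -0.05 ± 0.07 (adjusted p = 0.666) in CSB, and 0.41 ± 0.07 (adjusted p = 9.0e-04) for CSB against CSA. EFNA5, which guides retinal axons in mice, had 475 and 505 in the CSB libraries, 349 and 302 in the CSA libraries and 488 and 447 in the control libraries. EFNA5 fell in the CSA knockdown with a log2 fold change of -0.52 ± 0.09 (adjusted p = 0.00122). The CSA calls of EFNA1 and EFNA5 were lost without either control library, that of EFNA5 also without either CSB library or CSA replicate 2 (highest adjusted p 0.0742 for EFNA1 and 0.119 for EFNA5).

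Ephrin-Bs are transmembrane ligands of EPHB receptors. Beside EFNB2, described above, EFNB3 was the most abundant per kb in the control, with scaled counts of 1814 and 1857 in the CSB libraries, 2105 and 2380.3 in the CSA libraries and 2083 and 2021 in the control libraries. It passed neither comparison with the control (-0.16, adjusted p = 0.0873 for CSB and 0.13, adjusted p = 0.203 for CSA) but was lower in CSB than in CSA, at -0.29 ± 0.06 (adjusted p = 0.00367), a call lost without either control or either CSB library (highest adjusted p 0.15). EFNB1 had 658 and 736 in the CSB libraries, 449.8 and 498 in the CSA libraries and 521 and 531 in the control libraries. EFNB1 rose in the CSB knockdown by 0.40 ± 0.08 (adjusted p = 0.00251), lost without the same 4 libraries (highest adjusted p 0.124), while its difference from CSA, 0.56 ± 0.08 (adjusted p = 1.6e-04), held under every alternative run. Per kb, EFNB2 made up 14.3% and 14.6% of the ephrin-B total in the CSB libraries, 38.5% and 37.1% in the CSA libraries and 17.3% and 16.4% in the control libraries. The total itself was 889 and 935 scaled counts per kb in the CSB libraries, 1280.0 and 1410.0 in the CSA libraries and 972 and 941 in the control libraries.

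The netrins differed from gene to gene. NTN1, the best-known ligand of DCC and UNC5, was close to absent, with scaled counts of 3.86 to 9.76 over the 6 libraries. NTN3, a secreted netrin that binds the same receptors in mice, had 550.5 and 611 in the CSB libraries, 206 and 217 in the CSA libraries and 330.2 and 334 in the control libraries. CSB was highest and CSA lowest, with a log2 fold change of 0.80 ± 0.08 (adjusted p = 2.6e-05) in the CSB knockdown and -0.65 ± 0.08 (adjusted p = 1.7e-04) in the CSA knockdown, the fall lost without control replicate 1 (adjusted p of 0.0532). NTNG2 encodes netrin-G2, which is anchored by lipid to axons and binds a synaptic adhesion protein rather than DCC. It had 1903 and 1808 in the CSB libraries, 465 and 424 in the CSA libraries and 609.7 and 529.6 in the control libraries. The mean of the CSB libraries was 3.26 times that of the control, a log2 fold change of 1.70 ± 0.08 (adjusted p = 5.8e-08) held under every alternative run, and the CSA knockdown stood at -0.35 ± 0.08 (adjusted p = 0.00721), a call lost whichever library was left out (highest adjusted p 0.206). NTNG1 had 305 and 299 in the CSB libraries, 245 and 257 in the CSA libraries and 141 and 193 in the control libraries. NTNG1 rose by 0.87 ± 0.13 (adjusted p = 3.9e-04) in CSB and 0.60 ± 0.13 (adjusted p = 0.00596) in CSA, calls lost in 3 and 5 of the 6 fits that leave out a library. NTN4 and NTN5 passed neither test against the control, and NTN4 was higher in CSB than in CSA (0.64, adjusted p = 0.00802), a call lost when any library but CSA replicate 2 was left out and under DESeq2. Summed per kb, the netrins stood at 607 and 622 in the CSB libraries, 219 and 234 in the CSA libraries and 299 and 291 in the control libraries.

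On the receptor side, 7 of the 9 plexins rose and 2 fell in the CSB knockdown (77.8% and 22.2%), while 3 rose and 3 fell in the CSA knockdown (33.3% each). The well-expressed coding genes stood at 28.3% higher and 18.4% lower in CSB, and 16.1% higher and 21.2% lower in CSA. All 4 class A plexins, the signalling receptors for class 3 and class 6 semaphorins, rose in the CSB knockdown. PLXNA2 had scaled counts of 21203 and 22655 in the CSB libraries, 8017 and 8379.8 in the CSA libraries and 13144 and 13172 in the control libraries. CSB was highest, CSA lowest and no libraries of different groups overlapped. The log2 fold change was 0.74 ± 0.05 (adjusted p = 1.2e-06) in the CSB knockdown and -0.68 ± 0.05 (adjusted p = 2.2e-06) in the CSA knockdown, both held under every alternative run. PLXNA4, which with NRP1 transmits SEMA3A signals in sensory neurons of mice, had 15381 and 17153 in the CSB libraries, 7709.8 and 8016 in the CSA libraries and 9977 and 9759.6 in the control libraries. Its log2 fold change was 0.72 ± 0.06 (adjusted p = 3.1e-06) in the CSB knockdown and -0.33 ± 0.06 (adjusted p = 0.00149) in the CSA knockdown, the fall lost without either control or either CSA library (highest adjusted p 0.144).

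PLXNA1 had 7087 and 7497 in the CSB libraries, 4994 and 5143 in the CSA libraries and 4594 and 4472 in the control libraries. PLXNA1 rose in the CSB knockdown by 0.69 ± 0.05 (adjusted p = 1.6e-06). Its smaller rise in the CSA knockdown, 0.16 ± 0.05 (adjusted p = 0.0412), was lost whichever library was left out (highest adjusted p 0.27). PLXNA3 had 2280.2 and 2398 in the CSB libraries, 1873 and 2007 in the CSA libraries and 1749.6 and 1732 in the control libraries. PLXNA3 rose in the CSB knockdown by 0.43 ± 0.06 (adjusted p = 1.3e-04), lost without CSB replicate 2 (adjusted p of 0.054). Together the class A plexins summed to 3320.0 and 3580.0 scaled counts per kb in the CSB libraries, 1670.0 and 1740.0 in the CSA libraries and 2130.0 and 2110.0 in the control libraries. The make-up changed too: PLXNA2 held 46.3% and 45.9% of the sum in the CSB libraries, 34.9% and 35.0% in the CSA libraries and 44.7% and 45.3% in the control libraries, and PLXNA1 held 19.5% and 19.1% in the CSB libraries, 27.3% and 27.0% in the CSA libraries and 19.7% and 19.4% in the control libraries.

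Where 28.3% of the well-expressed coding genes rose in the CSB knockdown, the 3 class B plexins, receptors for class 4 semaphorins, also all rose. PLXNB2 was the most abundant of them per kb, at 80.6% and 81.6% of the class in the CSB libraries, 73.3% and 73.0% in the CSA libraries and 81.3% and 80.3% in the control libraries. Its scaled counts were 9431 and 9915 in the CSB libraries, 6433 and 6822 in the CSA libraries and 7160.4 and 6928 in the control libraries, with a log2 fold change of 0.46 ± 0.05 (adjusted p = 4.5e-05) in the CSB knockdown, held under every alternative run, and -0.09 ± 0.05 (adjusted p = 0.291) in the CSA knockdown. PLXNB1, the receptor of SEMA4D, had 2365 and 2302 in the CSB libraries, 2555 and 2762 in the CSA libraries and 1744 and 1789 in the control libraries. PLXNB1 rose in both knockdowns, by 0.59 ± 0.05 (adjusted p = 1.2e-05) in CSA, held throughout, and 0.40 ± 0.05 (adjusted p = 1.9e-04) in CSB, lost without either CSB library or control replicate 1 (highest adjusted p 0.0586). PLXNB3, a receptor of SEMA5A, shares 2935 bases with SRPK3 on the same strand, and how shared reads were assigned is not stated. It rose by 0.53 ± 0.08 (adjusted p = 2.7e-04) in CSB. In the CSA knockdown its rise of 0.34 ± 0.08 (adjusted p = 0.00751) was lost in 5 of the 6 fits that leave out a library.

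PLXNC1 and PLXND1 went down in the CSB knockdown. PLXNC1, the receptor of SEMA7A, had 159 and 167 in the CSB libraries, 229.8 and 194 in the CSA libraries and 228 and 243 in the control libraries, a log2 fold change of -0.53 ± 0.11 (adjusted p = 0.00401) in CSB and -0.16 ± 0.11 (adjusted p = 0.396) in CSA. PLXND1, the receptor of SEMA3E, had 536 and 561 in the CSB libraries, 533 and 597 in the CSA libraries and 779 and 719 in the control libraries. PLXND1 fell in both knockdowns, with log2 fold changes of -0.45 ± 0.08 (adjusted p = 0.00101) in CSB and -0.41 ± 0.08 (adjusted p = 0.00242) in CSA. The CSB falls of both were lost without either control or either CSB library (highest adjusted p 0.134 and 0.109), and the CSA fall of PLXND1 when any library but CSA replicate 2 was left out (highest adjusted p 0.133).

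The neuropilins bind class 3 semaphorins and forms of VEGF and have no signalling domain of their own. NRP2, preferred by SEMA3F, had scaled counts of 273 and 271 in the CSB libraries, 127 and 109 in the CSA libraries and 111 and 101 in the control libraries. The CSB libraries stood apart from the other groups, which lay close together. NRP2 differed by 1.35 ± 0.12 (adjusted p = 8.7e-06) on the log2 scale in the CSB knockdown, held under every alternative run, and 0.14 ± 0.12 (adjusted p = 0.488) in the CSA knockdown, and 1.21 ± 0.12 (adjusted p = 9.8e-06) between them. NRP1, preferred by SEMA3A, was the more abundant per kb and had 982 and 1041 in the CSB libraries, 910.5 and 855 in the CSA libraries and 1202 and 1174 in the control libraries. It was lower in both knockdowns, with log2 fold changes of -0.23 ± 0.06 (adjusted p = 0.0156) in CSB and -0.43 ± 0.06 (adjusted p = 3.4e-04) in CSA, calls lost without either control library (highest adjusted p 0.162 and 0.0688) and in CSB also without either CSB library. NRP2 made up 18.7% and 17.8% of neuropilin level per kb in the CSB libraries, 10.4% and 9.53% in the CSA libraries and 7.14% and 6.68% in the control libraries.

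ROBO1, the most abundant ROBO per kb, had scaled counts of 1734 and 1665 in the CSB libraries, 1469 and 1542 in the CSA libraries and 1610.3 and 1697 in the control libraries. ROBO1 passed neither comparison with the control, with log2 fold changes of 0.04 ± 0.06 (adjusted p = 0.679) for CSB and -0.14 ± 0.06 (adjusted p = 0.128) for CSA. ROBO1 and ROBO2 are neighbouring members on chromosome 3, on opposite strands. ROBO2 made up 7.44% and 8.48% of ROBO level per kb in the CSB libraries, 30.0% and 25.8% in the CSA libraries and 13.7% and 12.7% in the control libraries. The ROBO sum per kb was 251 in both CSB libraries, 264 and 274 in the CSA libraries and 242 and 246 in the control libraries. ROBO3, a divergent ROBO that in mammals does not bind SLITs with high affinity, had 511 and 533 in the CSB libraries, 343 and 430.1 in the CSA libraries and 428 and 409 in the control libraries, and its rise in the CSB knockdown (0.32, adjusted p = 0.0357) was lost without either CSB or either control library and under 4 other alternatives (highest adjusted p 0.374). ROBO4, an endothelial ROBO, had at most 5.78 scaled counts in any library.

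EPH receptors are receptor tyrosine kinases. EPHA2, a receptor of ephrin-A1, held 65.8 to 85.1% of EPHA level per kb in every library and had scaled counts of 1463 and 1494 in the CSB libraries, 776 and 769.6 in the CSA libraries and 1219 and 1191 in the control libraries. CSB was highest and CSA lowest, with a log2 fold change of 0.29 ± 0.06 (adjusted p = 0.00187) in CSB, lost without control replicate 2 (adjusted p of 0.0603), and -0.64 ± 0.06 (adjusted p = 6.3e-06) in CSA, held under every alternative run. EPHA10, an EPH receptor without kinase activity, had 244 and 236 in the CSB libraries, 299 and 358 in the CSA libraries and 315 and 333 in the control libraries. EPHA10 fell in the CSB knockdown with a log2 fold change of -0.43 ± 0.10 (adjusted p = 0.00709), lost without either CSB or either control library (highest adjusted p 0.194). EPHA6 and EPHA8 passed neither test against the control and were lower in CSB than in CSA (-0.91, adjusted p = 0.00215, and -0.45, adjusted p = 0.0257). The first of these calls was lost without CSB replicate 1 or either CSA library and the second when any library but CSB replicate 1 was left out (highest adjusted p 0.105 and 0.197). EPHA1 had at most 9.9 scaled counts in any library.

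Among EPHB receptors, EPHB4, which prefers ephrin-B2, had scaled counts of 3116 and 3302 in the CSB libraries, 1233 and 1339 in the CSA libraries and 1666 and 1569 in the control libraries. It rose in the CSB knockdown by 0.99 ± 0.06 (adjusted p = 4.1e-07), held under every alternative run. In the CSA knockdown it fell, with a log2 fold change of -0.33 ± 0.06 (adjusted p = 0.00196), a call lost whichever library was left out (highest adjusted p 0.133). In the direct comparison of CSB with CSA, EPHB4 was higher and its ligand EFNB2 lower, at log2 fold changes of 1.32 and -1.95. EPHB3 had 802 and 741 in the CSB libraries, 327 and 390.0 in the CSA libraries and 666 and 626 in the control libraries. EPHB3 fell in the CSA knockdown with a log2 fold change of -0.85 ± 0.09 (adjusted p = 2.7e-05), lost without control replicate 1 (adjusted p of 0.0607). EPHB3 shares 20626 bases with EIF2B5 on the same strand, and how shared reads were assigned is not stated. EPHB2, a receptor of ephrin-Bs on growth cones, had 1358 and 1521 in the CSB libraries, 1507 and 1687 in the CSA libraries and 1436 and 1398 in the control libraries. The CSB libraries of EPHB2 overlapped both other groups, and EPHB2 passed no test. EPHB1 had at most 8.81 scaled counts. EPHB4 held 61.6% and 63.3% of EPHB level per kb in the CSB libraries, 49.6% and 48.2% in the CSA libraries and 49.5% and 49.1% in the control libraries.

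The UNC5 receptors mediate repulsion from netrins and can trigger cell death when unbound. UNC5B was the most abundant of them, with scaled counts of 20277 and 21518 in the CSB libraries, 10054 and 11460.2 in the CSA libraries and 11946 and 11998 in the control libraries. The CSB libraries were the highest and the CSA libraries the lowest. Relative to the control, UNC5B stood at a log2 fold change of 0.80 ± 0.06 (adjusted p = 2.7e-06) in the CSB knockdown, held under every alternative run, and -0.16 ± 0.06 (adjusted p = 0.112) in the CSA knockdown. UNC5C went the other way, with 3621 and 3951 in the CSB libraries, 5791 and 5064 in the CSA libraries and 4875 and 4975 in the control libraries and a log2 fold change in the CSB knockdown of -0.38 ± 0.07 (adjusted p = 0.00114), lost without either CSB or either control library (highest adjusted p 0.151). UNC5A likewise fell there, at 1291 and 1372 in the CSB libraries, 1651 and 1803 in the CSA libraries and 1525 and 1522 in the control libraries, with a log2 fold change of -0.19 ± 0.06 (adjusted p = 0.0348), lost when any library but CSA replicate 1 was left out (highest adjusted p 0.27). UNC5D had 40.7 and 33.8 in the CSB libraries, 8.67 and 6.68 in the CSA libraries and 29.8 and 25.1 in the control libraries. UNC5D fell in the CSA knockdown with a log2 fold change of -1.72 ± 0.32 (adjusted p = 0.0023), lost without either control library, CSA replicate 2 or CSB replicate 2 (highest adjusted p 0.0911). UNC5B made up 82.3% and 82.1% of UNC5 level per kb in the CSB libraries, 61.5% and 65.3% in the CSA libraries and 68.3% and 68.2% in the control libraries. DCC, the attractive netrin receptor, was low in all groups, at 13.2 and 4.95 in the CSB libraries, 15.2 and 16.2 in the CSA libraries and 11.9 and 9.65 in the control libraries. DCC passed no test.

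**Figure D5:**
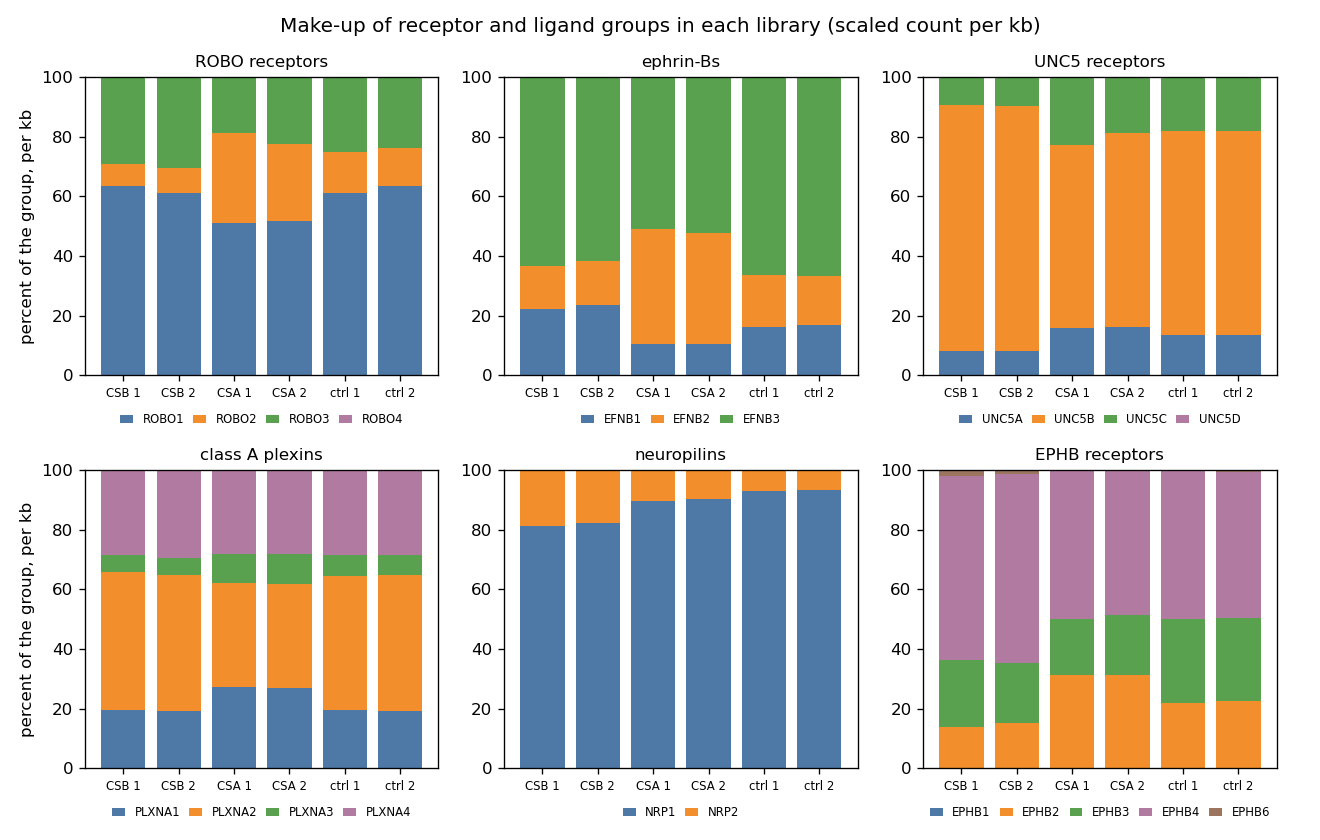
Share of each gene in its receptor or ligand group, in percent of the summed scaled count per kb (y axis), in the 2 libraries of the CSB knockdown, the CSA knockdown and the control (x axis). ROBO2 reaches 30.0% and EFNB2 38.5% in the first CSA library, whereas UNC5B reaches 82.3% and NRP2 18.7% in the first CSB library.

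The shares within groups are descriptions of 2 libraries each and were not tested. They do not depend on the size factor, which is the same for all genes of a library. For ROBO2, EFNB2, NRP2 and UNC5B the shares of the 3 groups did not overlap. The same held for other members, PLXNA2, UNC5A, UNC5C, EFNB1 and EPHB2 among them, so it was not particular to those first named. How often such shares are apart over all genes was not counted.

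Downstream of these receptors, 57 genes of guidance signalling were tested as a list of kinases, adaptors, collapsin response mediators and cytoskeletal effectors. In the CSB knockdown 21 rose and 11 fell (36.8% and 19.3%), with a median log2 fold change of 0.14, and in the CSA knockdown 10 rose and 18 fell (17.5% and 31.6%), with a median of -0.02. Among the well-expressed coding genes, 28.3% were higher and 18.4% lower in CSB and 16.1% higher and 21.2% lower in CSA, so the falls in CSB and the rises in CSA were near the background. TRIM67, a ubiquitin ligase that interacts with DCC, had scaled counts of 246 and 308 in the CSB libraries, 269.9 and 278 in the CSA libraries and 91.5 and 84.9 in the control libraries. It rose by 1.63 ± 0.12 (adjusted p = 2.0e-06) in CSB and 1.62 ± 0.12 (adjusted p = 2.1e-06) in CSA, the largest rise of the list in each. TRIO, an exchange factor downstream of DCC, had 19520.0 and 20000.0 in the CSB libraries, 11750.0 and 12140.0 in the CSA libraries and 11350.0 and 10830.0 in the control libraries. TRIO rose in CSB by 0.83 ± 0.05 (adjusted p = 3.4e-07). SRGAP3, a ROBO-binding GTPase activator, rose there by 0.77. The largest falls in CSB were those of DPYSL5 (-0.81), CRMP1 (-0.49) and CDC42 (-0.39), the first and second being collapsin response mediator proteins and the third a regulator of filopodia. In the CSA knockdown LIMK1, a kinase that inactivates cofilin, rose by 0.89 and the kinase ABL2 by 0.40. The largest falls there were those of MICAL2, an actin-oxidizing enzyme, with a log2 fold change of -1.68 ± 0.14 (adjusted p = 4.1e-06), of ABLIM3 (-1.09) and of DPYSL3 (-0.92). Without either CSB library the CSB calls of SRGAP3, CRMP1 and CDC42 ended, that of CRMP1 also without control replicate 1 and that of CDC42 without control replicate 2 (highest adjusted p 0.0536, 0.0696 and 0.0762). The CSA call of ABL2 ended without either control library or CSA replicate 2, and that of ABLIM3 when any library but CSB replicate 1 was left out (highest adjusted p 0.0776 and 0.155).

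Of 39 other guidance cues and receptors (cell adhesion molecules, morphogens with guidance roles and their receptors), 22 rose and 7 fell in the CSB knockdown (56.4% and 17.9%), and 7 rose and 13 fell in the CSA knockdown (17.9% and 33.3%), with median log2 fold changes of 0.28 and -0.08. The shares that fell in CSB and rose in CSA were near those of the well-expressed coding genes, 18.4% lower in CSB and 16.1% higher in CSA, where 28.3% were higher in CSB and 21.2% lower in CSA. BOC, a hedgehog receptor of commissural axons, had scaled counts of 597 and 618 in the CSB libraries, 94.3 and 114 in the CSA libraries and 179 and 184 in the control libraries. BOC rose in CSB by 1.74 ± 0.11 (adjusted p = 4.4e-07). DRAXIN, a secreted repellent that binds netrin and DCC, had 564 and 686 in the CSB libraries, 93.2 and 112 in the CSA libraries and 202 and 206 in the control libraries, with log2 fold changes of 1.61 ± 0.12 (adjusted p = 2.1e-06) in CSB and -0.98 ± 0.12 (adjusted p = 1.1e-04) in CSA. MET, the receptor of hepatocyte growth factor, rose in CSB by 1.48. Falling in CSB were DSCAM, a netrin-binding adhesion molecule, with 25.3 and 25.6 in the CSB libraries, 114 and 119 in the CSA libraries and 82.5 and 87.8 in the control libraries and a log2 fold change of -1.70 ± 0.17 (adjusted p = 2.1e-05), CHL1 (-1.47) and the chemokine receptor CXCR4 (-0.83). In the CSA knockdown the rises were led by FLRT1 (1.46), an adhesion molecule that binds UNC5, PTPRD (1.16) and L1CAM (0.79), and RGMA, a repellent that binds neogenin, fell. RGMA had 306 and 320.1 in the CSB libraries, 58.5 and 70.6 in the CSA libraries and 172 and 162 in the control libraries, with a log2 fold change of -1.36 ± 0.13 (adjusted p = 1.1e-05) in CSA. KDR also passed the test in CSA, but it had 0 reads there and at most 3 reads in a control library, so no fold is given. The CSB call of MET ended without CSB replicate 1 (adjusted p of 0.0524), that of CXCR4 without CSB replicate 2 (adjusted p of 0.0566) and that of CHL1 when any library but CSA replicate 1 was left out (highest adjusted p 0.133). The CSA call of DRAXIN ended without either control library (highest adjusted p 0.0736), and that of KDR without either control or either CSA library and under 4 other alternatives, edgeR and DESeq2 among them.

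Summed markers of fibroblasts and of endothelium stood in the order of groups that PLXNA2, SEMA5A and NTN3 also had, with the CSB knockdown highest and the CSA knockdown lowest. Of 10 fibroblast markers 9 were listed, POSTN being at 0, and their summed scaled counts were 16800.0 to 17600.0 in the CSB knockdown, 9440.0 to 9820.0 in the CSA knockdown and 14000.0 to 14300.0 in the control. COL1A1 had 2280.0 and 2341 in the CSB libraries, 681 and 793 in the CSA libraries and 1476 and 1334 in the control libraries. DCN had 783 and 683 in the CSB libraries, 139 and 112 in the CSA libraries and 165 and 147 in the control libraries. THY1 went the other way, with 1126 and 1088 in the CSB libraries, 1593 and 1549 in the CSA libraries and 1643 and 1677 in the control libraries. COL3A1, the most abundant of the list, had 7598 and 8365 in the CSB libraries and 7693 and 7483 in the control libraries, which overlapped. PDGFRA and FAP were lowest in the control. PDGFRA averaged 1940 in the CSB knockdown, 1177 in the CSA knockdown and 1043 in the control. Summed endothelial markers were 101 to 103 in the CSB knockdown, 41.2 to 54.4 in the CSA knockdown and 86.5 to 88.7 in the control. ESAM, the most abundant, had that order, with means of 68.4 in CSB, 23.1 in CSA and 45.0 in the control. CLDN5 was highest in the control (24.8 in CSB, 10.7 in CSA and 28.9 in the control). VWF was highest in CSA (5.92 in CSB, 13.5 in CSA and 8.86 in the control). The other listed endothelial markers averaged at most 3.45 in any group. Epithelial markers summed to 146 to 163 in the CSB knockdown, 285 in both CSA libraries and 204 to 225 in the control, while Schwann and glial markers summed to 130.0 to 154 in the CSB knockdown, 117 to 119 in the CSA knockdown and 126 to 127 in the control. Leukocyte markers summed to 26.4 to 28.6 in the CSB knockdown, 20.0 to 27.1 in the CSA knockdown and 29.8 to 29.9 in the control. Their part in the members' differences was not tested.

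The tested members had a median gene length of 6841 bases and a median genomic span of 51644 bases, against 4776 and 31681 bases for 15885 tested protein-coding genes. The part of length in the members' differences was not tested.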

How the data were processed

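Messenger RNA was sequenced as paired ends on an Illumina HiSeq instrument, from 1 µg of total RNA per TruSeq library, per the labels' protocols and the series' design text. Reads were checked with FastQC and aligned to hg38 with HISAT2 2.0.4, per the submitters' processing notes. The sources used here do not name the tool, annotation or strand setting used to count reads, or the normalization. The deposited value column is headed FPKM per the file headers, but it is a signal without gene length: in every library 100% of the values the authors deposited were whole multiples of the smallest, within 0.01 of that step, which makes them gene read counts over a library's size factor (scaled counts). A gene with no line in a library was taken as 0, and reads were recovered as multiples of the smallest value.

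Genes with a mean scaled count of 1 or more in some group were tested, 28388 in all. The 6 libraries were fitted together on the scale log2(scaled count + 1) by limma 3.58.1 (R 4.3.3) with its trend option, with 3 residual degrees of freedom, and p-values were Benjamini-Hochberg adjusted over all tested genes. Every adjusted p and SE in the text is from this fit, or from the named alternative to it. The pseudocount of 1 shrinks the fold changes of low genes. The depth of 19368272 to 26758162 gene reads leaves members with few reads with a wide counting error. The plan named edgeR for raw counts and limma for normalized values, and the scaled counts were treated as normalized. Alternatives were pseudocounts of 0.5 and 5, no filter and a filter at a mean of 10, upper quartile and TMM scaling, a fit of the 2 groups compared, a replicate block, omission of each library in turn, and edgeR 4.0.16 (quasi-likelihood, TMM) and DESeq2 1.42.0 on the recovered reads.

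Members and the further gene lists were chosen with earlier results of these data known. Members described with values of each library were the most abundant per kb of each family, those changed by at least 1 on the log2 scale with a group mean of at least 50, and those called in opposite directions in the knockdowns, with further members summarised. UNC5D and EPHB3 and other members outside that rule were chosen after their values were seen. From each further list the 3 largest rises and 3 largest falls against the control are named. Gene lengths and positions are those of the deposited tables, and promoter windows are from RefSeq. Overlapping and antisense genes are uncertain, since strand use is unknown. The limma, edgeR and DESeq2 steps were tested on simulated data with known changes. One marker of the further lists is not reported here.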

Additional observations from a re-analysis of the deposited data

How the results depend on the processing

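Of the 1102 values recomputed for the 23 genes of the naming rule under the alternatives, none that passed the threshold, as reported or under the alternative, changed sign. Values that passed it in neither did so for ROBO1 and DCC (-0.35 ± 0.47 in the full fit) in CSB and for EPHB6 and SLIT3 in CSA. Of all these values, 991 stayed on the same side of the threshold, 100 lost it (73 of them when a library was left out) and 11 crossed it. Leaving out each library in turn gave 18 to 31 members higher and 1 to 11 lower in the CSB knockdown (19 to 42 in all), 3 to 8 higher and 5 to 14 lower in the CSA knockdown (8 to 22 in all), and 23 to 30 higher and 4 to 9 lower in CSB against CSA (27 to 39 in all). Where this left a group with 1 library, that library was assumed to vary like the other groups. Under every other setting the member counts stayed within 1.5 times those reported, for instance 30 higher and 12 lower with edgeR and 26 and 11 with DESeq2 in the CSB knockdown, and 19 and 20 with edgeR and 11 and 20 with DESeq2 in the CSA knockdown. Upper quartile and TMM scaling moved log2 fold changes by -0.0405 and -0.0725 for CSB, by 0.0197 and 0.0157 for CSA and by -0.0602 and -0.0881 between them. Replicate numbers did not pair the samples: same-numbered deviations correlated at -0.0222 between CSB and control, -0.0433 between CSA and control and -0.0234 between CSB and CSA, over 13881 genes, and the fit with a replicate block gave 30 higher and 10 lower for CSB, 13 and 20 for CSA and 32 and 16 for CSB against CSA. With 2 libraries a group, 3 residual degrees of freedom and members such as NTN1, ROBO4 and EPHB1 at few reads, small differences in such members were not detectable at this depth.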
